A study of Homo sapiens with 4 samples.

Results

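Gangliosides are sialic acid-bearing glycosphingolipids of the outer cell membrane. The genes described here build them from ceramide or remove their sialic acid. The set holds 9 of the 23228 gene symbols in the count tables, taken by name: UGCG, B4GALT5, B4GALT6, ST3GAL5, ST8SIA1, B4GALNT1, ST8SIA5, NEU1 and NEU3. RNA came from U87 MG, an established human glioblastoma line, 72 hours after transfection with siRNA, a small RNA duplex that guides the cell's silencing complex to matching transcripts. The PELP1 siRNA group (2 libraries) received siRNA against PELP1, a nuclear receptor coregulator and scaffold protein, and the control siRNA group (2 libraries) received a control siRNA. Both groups were the same line in the same serum-containing medium, treated with the same transfection reagent, and neither received any other agent per the labels. The set was selected on pathway membership with its read counts in the PELP1 siRNA to control siRNA contrast already known, and its values come from those same counts, so the members' changes are a description without p-values.

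In the Golgi, glucose, galactose and then sialic acid are added in turn to ceramide, which gives glucosylceramide, lactosylceramide and the ganglioside GM3. GM3 is a branch point: a further sialic acid makes GD3, and an N-acetylgalactosamine makes GM2, or GD2 when it is added to GD3. Sialidases work in the other direction, in the lysosome and at the plasma membrane. GD3 and GD2 are known from gliomas and other tumours of neuroectodermal origin.

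Reads assigned to genes numbered 18670162 to 19389684 in the PELP1 siRNA libraries and 19662271 to 22858988 in the control siRNA libraries. PELP1 itself stood at 15.2 and 17.7 CPM with PELP1 siRNA, against 74.0 and 78.1 CPM with control siRNA (log2 fold change -2.21, SE 0.097, adjusted p = 8.32e-14, edgeR's quasi-likelihood test). CPM scales each gene's count to the same effective library size. Of 8 markers of mesenchymal glioma 5 exceeded 5 CPM in every library and 3, the glial or stem cell genes GFAP, S100B and SOX2, stayed at or below 5 CPM. The markers' summed level was 12852 to 13333 CPM with PELP1 siRNA and 15559 to 15619 CPM with control siRNA. VIM, CD44, FN1 and NES were lower (adjusted p = 8.73e-04, 1.92e-04, 1.26e-06 and 2.90e-04, edgeR). Their mean CPM, PELP1 siRNA against control siRNA, was 5833 against 7081, 1979 against 2470, 2294 against 3195 and 33.6 against 47.8. TNC went the other way, at 2913 and 2989 CPM with PELP1 siRNA, against 2819 and 2767 CPM with control siRNA (adjusted p = 0.322, edgeR). Markers of oligodendrocytes, immune cells, epithelium and melanocytes were all at or below 5 CPM, and 3 of 5 immune markers were at 0 in every library. The summed levels of these 4 lists were 0.305 to 1.73 CPM in the PELP1 siRNA libraries and 0.357 to 1.52 CPM in the control siRNA libraries. The epithelial marker EPCAM was higher (adjusted p = 0.0188, edgeR). It stood at 1.68 and 1.53 CPM with PELP1 siRNA, against 0.671 and 0.893 CPM with control siRNA. Of 5 neuronal markers, 3 (SNAP25, SYT1 and TUBB3) exceeded 5 CPM in every library. The neuronal list summed to 161 to 172 CPM with PELP1 siRNA and 188 to 193 CPM with control siRNA. Its expressed markers did not move together. SNAP25 was lower (log2 fold change -0.63, adjusted p = 9.03e-06, edgeR). SYT1 went the other way, at 18.3 and 19.4 CPM with PELP1 siRNA against 14.4 and 16.6 CPM with control siRNA. For SYT1, edgeR gave an adjusted p of 0.0608, and 0.0310 with scaling by total counts. TUBB3 stood at 112 and 121 CPM with PELP1 siRNA, against 126 and 128 CPM with control siRNA (adjusted p = 0.220, edgeR). Of 4 endothelial markers KDR alone exceeded 5 CPM in every library. The endothelial list summed to 10.9 to 11.4 CPM with PELP1 siRNA and 14.9 to 15.3 CPM with control siRNA, and KDR was lower (log2 fold change -0.50, adjusted p = 0.00380, edgeR, and 0.103 without control siRNA library 1). The part of these marker differences in the ganglioside genes' values was not tested. Over all 13234 genes tested, 1712 were higher and 1980 lower (53.6% of the changed genes lower), or 2272 higher and 1597 lower (41.3%) when libraries were scaled by total counts. The 2 PELP1 siRNA libraries differed more from each other (chi-square of 7.15 per gene) than the 2 control siRNA libraries did (2.09). The labels do not say that libraries of a group came from separate cultures, so each p-value reflects the spread between these samples alone, and that spread may be technical.

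All 9 genes had at least 56 counts in every library and all 9 passed the filter on low counts. With PELP1 siRNA 2 of them passed the threshold as higher (ST8SIA1 and NEU1) and 4 as lower (B4GALT5, B4GALT6, B4GALNT1 and ST8SIA5). The threshold is an adjusted p under 0.05 over all genes tested. Over all genes, 27.9% passed it, 12.9% as higher and 15.0% as lower. The libraries of both groups did not overlap for 7 of the 9 genes, and for 64.2% of all genes tested. The members' median log2 fold change was -0.25, beside 0.00088 over all genes tested. In bulk RNA a lower level can mean fewer cells that express a gene or less RNA per cell, which cannot be told apart.

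**Figure D1:**
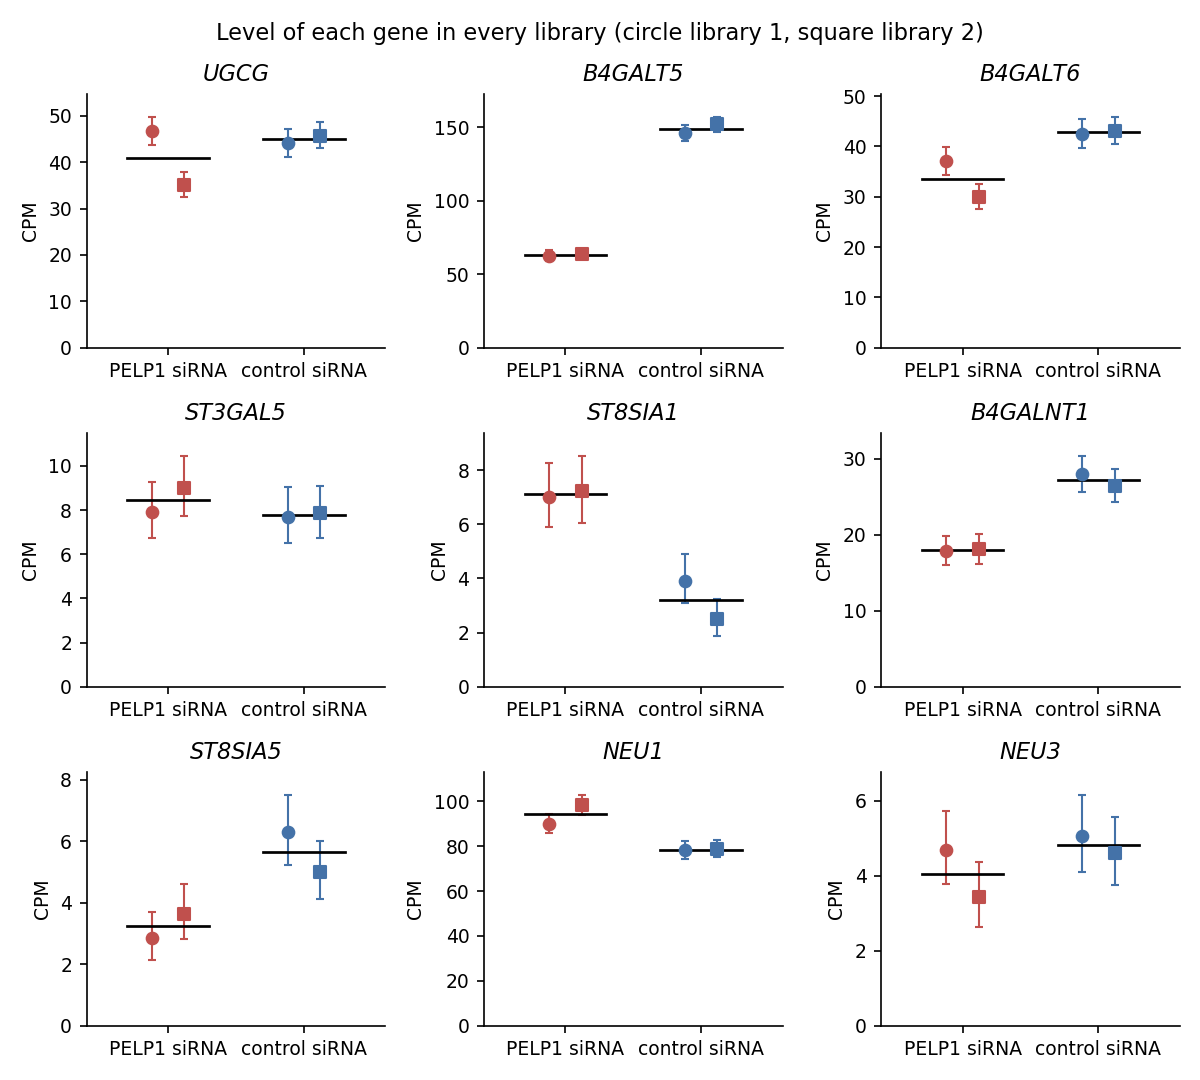
Level of each gene in CPM (linear axis from 0) in the 2 PELP1 siRNA libraries, at left in each panel, and the 2 control siRNA libraries, at right; whiskers are exact Poisson 95% intervals of the count, which cover counting error only, and black lines are group means. ST8SIA1 lies at 7.01 and 7.22 CPM with PELP1 siRNA, above 3.92 and 2.50 CPM with control siRNA, and B4GALT5 lies at 62.7 and 63.6 CPM, below 146 and 152 CPM.

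The genes differed in the short words their 3' UTRs hold, which are shown here because B4GALT5 and other genes that were lower carry them. CTCAGTT and GCCTTGA are 7-base words that also occur in the coding sequence of PELP1 and were singled out earlier from the fold changes of these same libraries, so their presence supports nothing here. The siRNA sequences themselves were not given in the sources used here. Either word is in the 3' UTR of 2807 of 11046 tested genes with an annotated 3' UTR (25.4%), CTCAGTT in 17.4% and GCCTTGA in 11.9%. Of the 4 genes past the threshold as lower, B4GALT5, B4GALNT1 and ST8SIA5 carry a word and B4GALT6 carries neither. ST3GAL5 (CTCAGTT once) and NEU3 (each word once) carry a word and did not pass the threshold, and UGCG, ST8SIA1 and NEU1 carry neither. The sites below are read 5' to 3' on the transcript (GENCODE on GRCh37) with the word in capitals.
B4GALT5, chr20:48252118-48252124, minus strand: aagtgcaggaaCTCAGTTaaaatgcagttg
B4GALT5, chr20:48251111-48251117, minus strand: cattgcgcccaGCCTTGAagtcatgttcta
B4GALNT1, chr12:58017781-58017787, minus strand: aagccaggacaGCCTTGAggcagaggaggt
ST8SIA5, chr18:44251002-44251008, minus strand: gtaactgaggaCTCAGTTgaaggaaaataa
ST3GAL5, chr2:86067249-86067255, minus strand: acacagaaaacCTCAGTTgaaaatgcaact
NEU3, chr11:74718085-74718091, plus strand: ttttaataatgCTCAGTTctgtaggctctc
The 3' UTRs differ in length: that of ST8SIA5 spans 12221 bases and holds 3 copies of CTCAGTT and 2 of GCCTTGA, while that of ST8SIA1 spans 8161 bases and holds none of either. The 3' UTR of B4GALT5 spans 3367 bases and that of B4GALT6 spans 3368.

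UGCG (GRCh37 chromosome 9, 114659094 to 114697649, plus strand) encodes glucosylceramide synthase, which commits ceramide to glycosphingolipids. It stood at 46.7 and 35.0 CPM with PELP1 siRNA, against 44.1 and 45.7 CPM with control siRNA, so that the groups overlapped and PELP1 siRNA library 2 alone was low. Its log2 fold change was -0.14 (SE 0.10) and did not pass the threshold. Without PELP1 siRNA library 1 the log2 fold change was -0.36 and passed it, and without PELP1 siRNA library 2 it was 0.060 and did not, so the sign rested on that library.

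The lactosylceramide synthases B4GALT5 and B4GALT6 add galactose to glucosylceramide. B4GALT5 (chromosome 20, 48249482 to 48330415, minus strand) stood at 62.7 and 63.6 CPM with PELP1 siRNA, against 146 and 152 CPM with control siRNA. All 4 libraries of B4GALT5 held at least 1207 counts, the groups were far apart, and the libraries of each group lay close together. Its mean was 63.2 ± 0.601 CPM with PELP1 siRNA and 149 ± 4.15 CPM with control siRNA (mean ± SD, n = 2 libraries each; log2 fold change -1.24, SE 0.072), so that it fell by 57.7%. Of all genes tested, 89 had a lower log2 fold change. B4GALT6 (chromosome 18, 29202209 to 29265799, minus strand) stood at 37.0 and 30.0 CPM with PELP1 siRNA, against 42.5 and 43.1 CPM with control siRNA. It was lower in both PELP1 siRNA libraries, more so in library 2, with a log2 fold change of -0.35 (SE 0.098). The change was -0.20 without PELP1 siRNA library 2 and did not pass the threshold without either control siRNA library (-0.36 without library 1, -0.34 without library 2). No stretch of 50 bases, the read length per the labels, of the canonical B4GALT5 transcript occurs in B4GALT6 or the reverse.

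The ratio of these 2 genes inside a library does not depend on scaling. There were 1.70 and 2.12 B4GALT5 reads per B4GALT6 read with PELP1 siRNA, against 3.44 and 3.53 with control siRNA. Both PELP1 siRNA libraries thus had a smaller share of B4GALT5, and the ratio was 1.84-fold lower on the log-scale mean. Among the other 5 beta-1,4-galactosyltransferases, which mostly build protein glycans, only B4GALT3 passed the threshold and it was higher, at 62.9 and 66.2 CPM with PELP1 siRNA and 52.6 and 54.7 CPM with control siRNA (log2 fold change 0.27, SE 0.080, adjusted p = 0.0149, edgeR). Its adjusted p without control siRNA library 1 or 2 went up to 0.325. The log2 fold changes of B4GALT1, the best known of the family, of B4GALT2 and of B4GALT4 were -0.12, 0.16 and 0.23, with adjusted p of 0.169, 0.146 and 0.0609. B4GALT4 passed in 4 of 13 alternative fits: with upper quartile scaling (adjusted p = 0.0481), with total counts (0.0248), and without PELP1 siRNA library 1 (0.0340) or library 2 (0.00351). B4GALT1 passed without either PELP1 siRNA library (0.0407 without library 1, 0.0275 without library 2), and B4GALT2 without PELP1 siRNA library 1 (0.00113).

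ST3GAL5 (chromosome 2, 86064243 to 86132322, minus strand) encodes GM3 synthase, which puts the first sialic acid on lactosylceramide. It stood at 7.92 and 9.01 CPM with PELP1 siRNA, against 7.69 and 7.86 CPM with control siRNA. The groups lay next to each other without overlap, the log2 fold change was 0.12 (SE 0.14), and the gene did not pass the threshold in any of 13 alternative fits.

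ST8SIA1 (chromosome 12, 22216707 to 22589975, minus strand) encodes GD3 synthase, which adds a further sialic acid to GM3 and so opens the b-series of gangliosides. It stood at 7.01 and 7.22 CPM with PELP1 siRNA, from 138 and 137 counts, against 3.92 and 2.50 CPM with control siRNA, from 76 and 56 counts. Both PELP1 siRNA libraries were above both control siRNA libraries, and the spread lay in the control siRNA pair, whose exact Poisson 95% intervals were 3.09 to 4.91 CPM in library 1 and 1.89 to 3.25 CPM in library 2. Its mean was 7.11 ± 0.150 CPM with PELP1 siRNA and 3.21 ± 1.00 CPM with control siRNA (SD, n = 2 libraries each; log2 fold change 1.16, SE 0.19), 2.24-fold higher. Of 13234 genes tested, 59 had a larger log2 fold change. It was 0.86 without control siRNA library 2 and 1.51 without control siRNA library 1, and passed the threshold in both.

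B4GALNT1 (chromosome 12, 58017192 to 58027022, minus strand) encodes the synthase of GM2 and GD2. It stood at 17.9 and 18.1 CPM with PELP1 siRNA, against 28.0 and 26.4 CPM with control siRNA. The groups were well apart and each pair was tight, with a log2 fold change of -0.60 (SE 0.099). Of its exon bases 27.1% are shared with SLC26A10P and an unnamed locus on the opposite strand, and the strand setting of the authors' counting was not given in the sources used here. The deposited symbol SLC26A10 stood at 6.70 and 7.27 CPM with PELP1 siRNA, against 10.8 and 9.46 CPM with control siRNA (log2 fold change -0.54, SE 0.14, adjusted p = 0.00614, edgeR, with 0.0522 by DESeq2 and 0.162 without control siRNA library 1), so both genes were lower together and reads of one cannot be told apart from those of the other there.

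ST8SIA5 (chromosome 18, 44247784 to 44339220, minus strand) encodes a sialyltransferase that acts on later gangliosides with several sialic acids. It stood at 2.84 and 3.64 CPM with PELP1 siRNA, against 6.29 and 5.0 CPM with control siRNA. These values rest on 56 to 122 counts a library, and the groups did not overlap. The log2 fold change was -0.80 (SE 0.19), and without control siRNA library 1 it was -0.63 and did not pass the threshold. ST8SIA5 and ST8SIA1, members of the same sialyltransferase family, thus stood on opposite sides of 0.

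**Figure D2:**
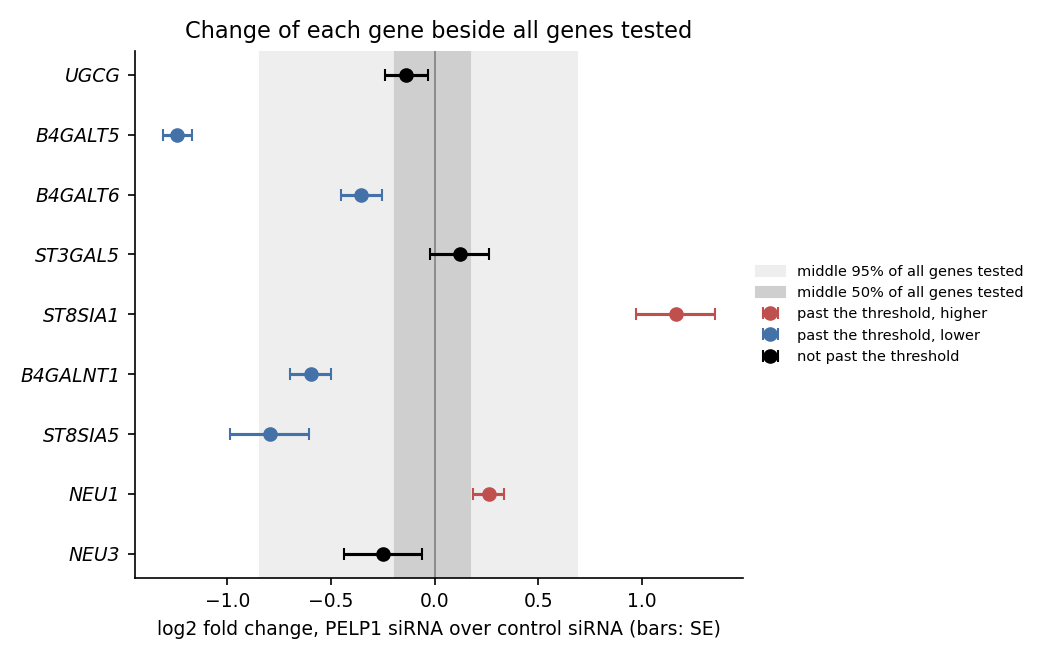
Log2 fold change of each gene, PELP1 siRNA over control siRNA, with bars of 1 SE on either side; red is past the threshold and higher, blue past it and lower, black not past it, and the bands hold the middle 50% and 95% of the 13234 genes tested. B4GALT5 (-1.24) and ST8SIA1 (1.16) lie outside the wider band, which runs from -0.84 to 0.69, and the other 7 genes lie inside it.

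Ratios of reads between the genes of GM3 synthesis and later steps, taken inside each library, differed between the groups. There were 0.885 and 0.801 ST8SIA1 reads per ST3GAL5 read with PELP1 siRNA, against 0.510 and 0.318 with control siRNA. There were 0.392 and 0.399 ST8SIA1 reads per B4GALNT1 read with PELP1 siRNA, against 0.140 and 0.0946 with control siRNA. Both ratios were higher in both PELP1 siRNA libraries, by 2.09-fold and 3.44-fold. The ratio of B4GALNT1 to ST3GAL5 reads was 2.26 and 2.01 with PELP1 siRNA, against 3.64 and 3.36 with control siRNA, 1.64-fold lower. ST8SIA1 reads outnumbered those of ST8SIA5 in both PELP1 siRNA libraries, with 2.46 and 1.99 ST8SIA1 reads per ST8SIA5 read, against 0.623 and 0.50 in the control siRNA libraries, where ST8SIA5 reads were the more numerous. These are ratios of reads and not of transcripts or enzymes, and come from the same contrast as the fold changes above.

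**Figure D3:**
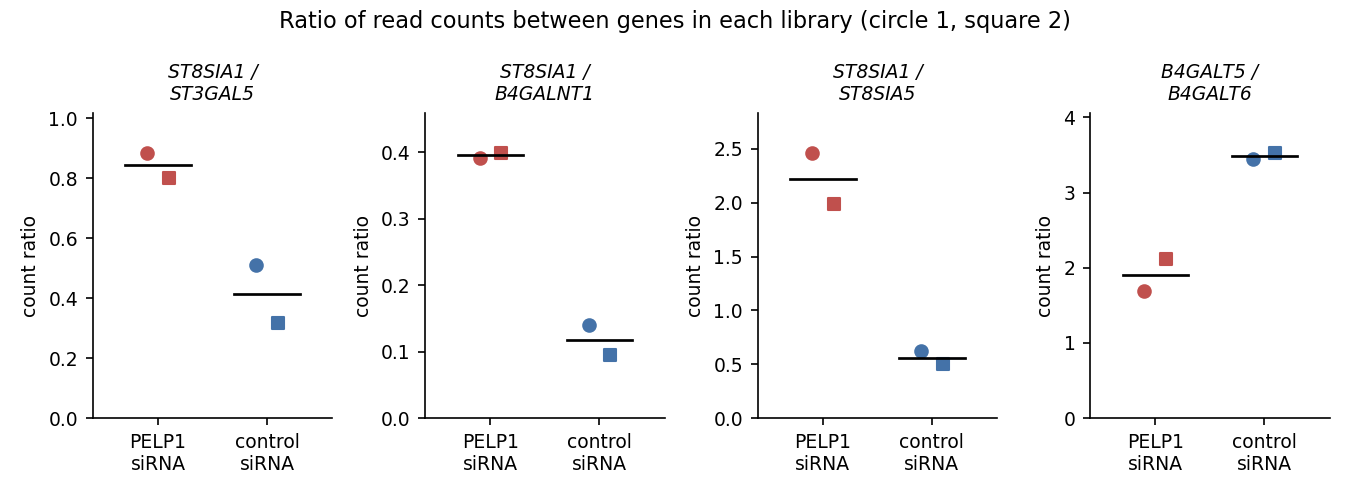
Read count of the first gene divided by that of the second in each library (linear axes from 0), PELP1 siRNA at left and control siRNA at right, with lines at the group means. The 3 ratios with ST8SIA1 on top are higher in both PELP1 siRNA libraries, and B4GALT5 over B4GALT6 is lower in both, at 1.70 and 2.12 against 3.44 and 3.53.

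NEU1 (chromosome 6, 31825436 to 31830682, minus strand) encodes the lysosomal sialidase. It stood at 89.9 and 98.4 CPM with PELP1 siRNA, against 78.1 and 78.9 CPM with control siRNA. It was higher in both PELP1 siRNA libraries by a modest amount (log2 fold change 0.26, SE 0.075) and did not pass the threshold without control siRNA library 1 (0.25) or without control siRNA library 2 (0.27). NEU3 (chromosome 11, 74699324 to 74729938, plus strand), the plasma membrane sialidase that prefers gangliosides, stood at 4.67 and 3.42 CPM with PELP1 siRNA, against 5.06 and 4.60 CPM with control siRNA. The groups overlapped, and the log2 fold change of -0.25 (SE 0.19) did not pass the threshold and was -0.038 without PELP1 siRNA library 2. The other human sialidase genes were near or at 0: NEU2 had 0 counts in every library, which allows up to 0.158 CPM, and NEU4 had 1 and 0 counts with PELP1 siRNA and 1 and 7 with control siRNA.

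PELP1 siRNA library 2 was lower than library 1 for UGCG by a log2 ratio of -0.41, for NEU3 by -0.45 and for B4GALT6 by -0.30, where the middle 95% of all genes tested ran from -0.53 to 0.58. In the control siRNA pair UGCG and B4GALT6 differed by at most 0.051 on the log2 scale, and ST8SIA1 was lower in library 2 by -0.65, beyond the middle 95% of all genes tested there (-0.53 to 0.43). The part of library differences in the changes of UGCG, B4GALT6, NEU3 and ST8SIA1 was not tested beyond leaving out each library.

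Per exon length, the set spanned a wide range of levels. Levels are in RPKM, the CPM per kilobase of annotated exons. With PELP1 siRNA, NEU1 was first at 19.5 ± 1.26 RPKM, followed by B4GALT5 at 13.4 ± 0.127, UGCG at 8.95 ± 1.81, B4GALT6 at 6.48 ± 0.962 and B4GALNT1 at 2.28 ± 0.0182 RPKM (SD, n = 2 libraries). NEU3 at 0.561 ± 0.122, ST3GAL5 at 0.519 ± 0.0473 and ST8SIA1 at 0.491 ± 0.0104 RPKM came next, and ST8SIA5 was last at 0.207 ± 0.0358 RPKM. In this order the libraries of NEU3, ST3GAL5 and ST8SIA1 overlapped. Those of UGCG (10.2 and 7.67 RPKM) and B4GALT6 (7.17 and 5.80 RPKM) did not, though the ranges of 1 SD around their means did. With control siRNA, B4GALT5 was first at 31.6 ± 0.880 RPKM, followed by NEU1 at 16.3 ± 0.106, UGCG at 9.83 ± 0.248, B4GALT6 at 8.28 ± 0.0909 and B4GALNT1 at 3.45 ± 0.138 RPKM. The other 4 genes were below 1 RPKM there, with NEU3 at 0.669 ± 0.0449, ST3GAL5 at 0.477 ± 0.00736, ST8SIA5 at 0.360 ± 0.0584 and ST8SIA1 at 0.222 ± 0.0694 RPKM. No 2 neighbours in the control siRNA order had overlapping libraries. The glucosylceramide and lactosylceramide steps and the lysosomal sialidase were thus at the top in both groups, and the sialyltransferases near the bottom. With the longest annotated transcript as the length, ST3GAL5 stood at 1.37 RPKM with PELP1 siRNA and 1.26 RPKM with control siRNA, above NEU3 in both, so the order of the low genes rests on the gene models.

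**Figure D4:**
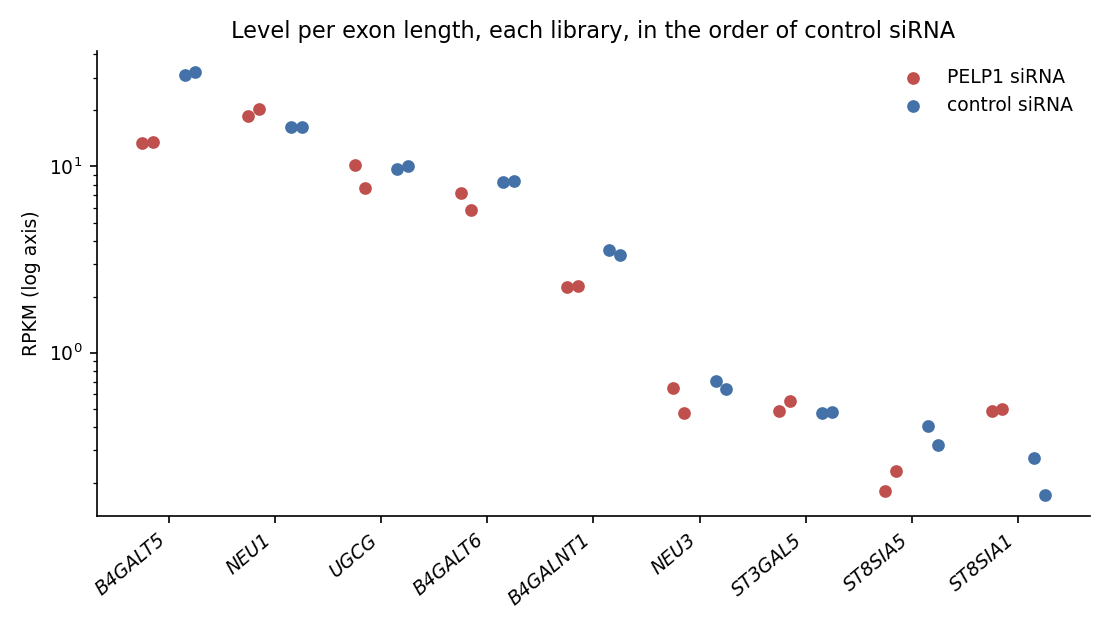
Level per exon length (RPKM, log axis) of each gene in each library, PELP1 siRNA (red) left of control siRNA (blue), genes in the order of the control siRNA means. B4GALT5 stands below NEU1 with PELP1 siRNA and above it with control siRNA, and ST8SIA1 stands above ST8SIA5 with PELP1 siRNA and below it with control siRNA.

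The 250 bases before the annotated starts of ST8SIA1 and B4GALT5, the genes with the highest and the lowest log2 fold change, show how the promoters of the extremes compare. RefSeq gave a promoter for 6 of the 9 genes, and the sequences here are RefSeq's on GRCh38.p14, a later build than that of the gene positions above. Capitals mark GC boxes (GGGCGG on either strand), letters that Sp1-type factors are known to bind.
ST8SIA1, chr12:22334708-22334957, minus strand: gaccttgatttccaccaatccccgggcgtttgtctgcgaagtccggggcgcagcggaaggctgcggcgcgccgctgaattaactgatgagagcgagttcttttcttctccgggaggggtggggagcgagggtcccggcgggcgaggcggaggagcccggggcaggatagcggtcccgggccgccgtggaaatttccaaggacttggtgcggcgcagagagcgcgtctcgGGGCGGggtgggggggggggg
B4GALT5, chr20:49713879-49714128, minus strand: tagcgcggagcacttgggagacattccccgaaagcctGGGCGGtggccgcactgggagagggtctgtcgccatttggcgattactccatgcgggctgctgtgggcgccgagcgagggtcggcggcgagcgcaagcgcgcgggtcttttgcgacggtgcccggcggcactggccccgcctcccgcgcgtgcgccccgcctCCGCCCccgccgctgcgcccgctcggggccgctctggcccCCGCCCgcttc
Both windows are rich in G and C, 69.2% for ST8SIA1 and 75.6% for B4GALT5, beside a median of 58.0% over 35116 promoters. ST8SIA1 holds 1 GC box and B4GALT5 holds 3, and 42.6% of all promoters hold at least 1. Among the other genes with a promoter, UGCG holds 3 and NEU1 holds 1. By annotated start, ST3GAL5 holds 0 to 3 and NEU3 holds 0 to 1. ST8SIA1 holds a CCAAT box apart from its GC box, as do 32.0% of promoters, and B4GALT5 holds none. Neither window holds TATAAA (10.7% of promoters), the E-box CACGTG (6.35%), the TCF/LEF motif CTTTGAT (2.26%) or the nuclear receptor motif AGGTCA (12.1%), searched on both strands. These matches describe letters only.

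Of 80 other genes of sphingolipid and sialic acid metabolism in 7 lists, 62 were tested: 14 were higher with PELP1 siRNA, 6 were lower, and 42 missed the threshold. Of these 62 genes 32.3% passed it, beside 27.9% over all genes tested (12.9% higher and 15.0% lower). The median log2 fold change of the 62 genes was 0.030, beside 0.00088 over all genes tested. The lists were compiled with earlier results of these data known, and 8 of the genes had 0 counts in every library. In the paragraphs on these lists, a gene that was higher, rose or fell by a number did so by that log2 fold change.

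Among the later steps of ganglioside synthesis, 6 of 8 genes were tested, 1 was higher and 1 lower. ST3GAL1, a sialyltransferase that caps galactose on glycans, was lower at 179 and 160 CPM with PELP1 siRNA, against 236 and 249 CPM with control siRNA (log2 fold change -0.51, SE 0.069, adjusted p = 5.25e-06, edgeR). ST6GALNAC4 was higher by 0.25 (adjusted p = 0.0392), and not past the threshold with DESeq2 (adjusted p = 0.104) or without control siRNA library 1 (0.278) or control siRNA library 2 (0.375). B3GALT4, which makes GM1 from GM2, had at most 8 counts in a library and was not tested. In the other glycosphingolipid branches 5 of 7 genes were tested and the globoside synthase B3GALNT1 alone passed, lower at 23.0 and 20.3 CPM with PELP1 siRNA, against 32.7 and 33.9 CPM with control siRNA (log2 fold change -0.62, adjusted p = 4.17e-05).

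Genes of ceramide and sphingomyelin synthesis passed the threshold either way. Of 17 tested, 5 were higher and 4 lower, while 8 missed it, with a median log2 fold change of -0.015. The share that passed was 52.9%, beside 27.9% over all genes tested. SGMS2, a sphingomyelin synthase, was lower at 43.5 and 35.5 CPM with PELP1 siRNA, against 66.3 and 68.5 CPM with control siRNA (log2 fold change -0.77, SE 0.092, adjusted p = 1.09e-06, edgeR). SPTLC3, a subunit of serine palmitoyltransferase, fell by 0.49 (adjusted p = 2.37e-05) and KDSR, the reductase of the next step, fell by 0.33 (adjusted p = 6.27e-04, and 0.0654 without control siRNA library 2). SPTSSA, the small activating subunit of serine palmitoyltransferase, rose to 28.4 and 30.3 CPM with PELP1 siRNA, against 19.6 and 20.2 CPM with control siRNA (log2 fold change 0.56, adjusted p = 1.29e-04). PLEKHA8, which carries glucosylceramide through the Golgi, rose by 0.56 (adjusted p = 1.32e-04). ORMDL3, an inhibitor of serine palmitoyltransferase, rose by 0.34 (adjusted p = 0.00444, up to 0.150 without control siRNA library 1 or 2).

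Of 13 tested genes of lysosomal breakdown, 3 were higher, none was lower and 10 missed the threshold (median log2 fold change 0.067). None was lower at an unadjusted p under 0.05 in edgeR either, nor by DESeq2 or limma-voom. The share that passed was 23.1%, below the 27.9% over all genes tested. Log2 fold changes were above 0 for 8 of the 13 genes and below 0 for 5. The beta-galactosidase GLB1 rose by 0.25 (adjusted p = 0.00662) and the acid sphingomyelinase SMPD1 rose by 0.21 (adjusted p = 0.0288). Without control siRNA library 1 or 2 neither GLB1 (adjusted p up to 0.242) nor SMPD1 (up to 0.360, and 0.0591 with DESeq2) passed. CTSA, the protective protein that NEU1 needs, had a log2 fold change of -0.12 and did not pass (adjusted p = 0.151), though it did without PELP1 siRNA library 2 (0.000584). Of 13 genes of sialic acid and sugar nucleotide supply, 2 were higher, none was lower and 11 missed the threshold, so that 15.4% passed. At an unadjusted p under 0.05 in edgeR 2 were lower, and none by DESeq2 or limma-voom after adjustment. UGP2, which makes UDP-glucose, rose by 0.24 (adjusted p = 0.0101, up to 0.324 without control siRNA library 1 or 2), and the sialic acid esterase SIAE rose by 0.37 (adjusted p = 0.0269, up to 0.253 without control siRNA library 1 or 2, and 0.147 with DESeq2).

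Of 10 other sialyltransferases, which act on proteins or several substrates, 3 were tested and 2 were higher. ST8SIA4, a polysialyltransferase of the same family as ST8SIA1, rose to 5.99 and 5.59 CPM with PELP1 siRNA, against 2.84 and 3.12 CPM with control siRNA (log2 fold change 0.95, SE 0.18, adjusted p = 3.48e-04, edgeR). ST3GAL6 rose to 12.9 and 12.1 CPM with PELP1 siRNA, against 7.63 and 7.77 CPM with control siRNA (log2 fold change 0.70, adjusted p = 2.48e-04). The other 7 had at most 6 counts in a library, and 4 of them had 0 in all. Among the list genes, a 3' UTR word described above stood in 3 of the 6 lower genes (SGMS2, KDSR and the ceramide desaturase DEGS1). It stood in 2 of the 14 higher genes (SIAE and SMPD1) and in 8 of the 42 that did not pass the threshold. Either word is in 25.4% of tested genes with an annotated 3' UTR. Both words were singled out from the fold changes of these same libraries, so these counts support nothing. DEGS1 had an adjusted p of 0.0253, and of 0.0826 with total counts and up to 0.329 without control siRNA library 1 or 2.

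**Figure D5:**
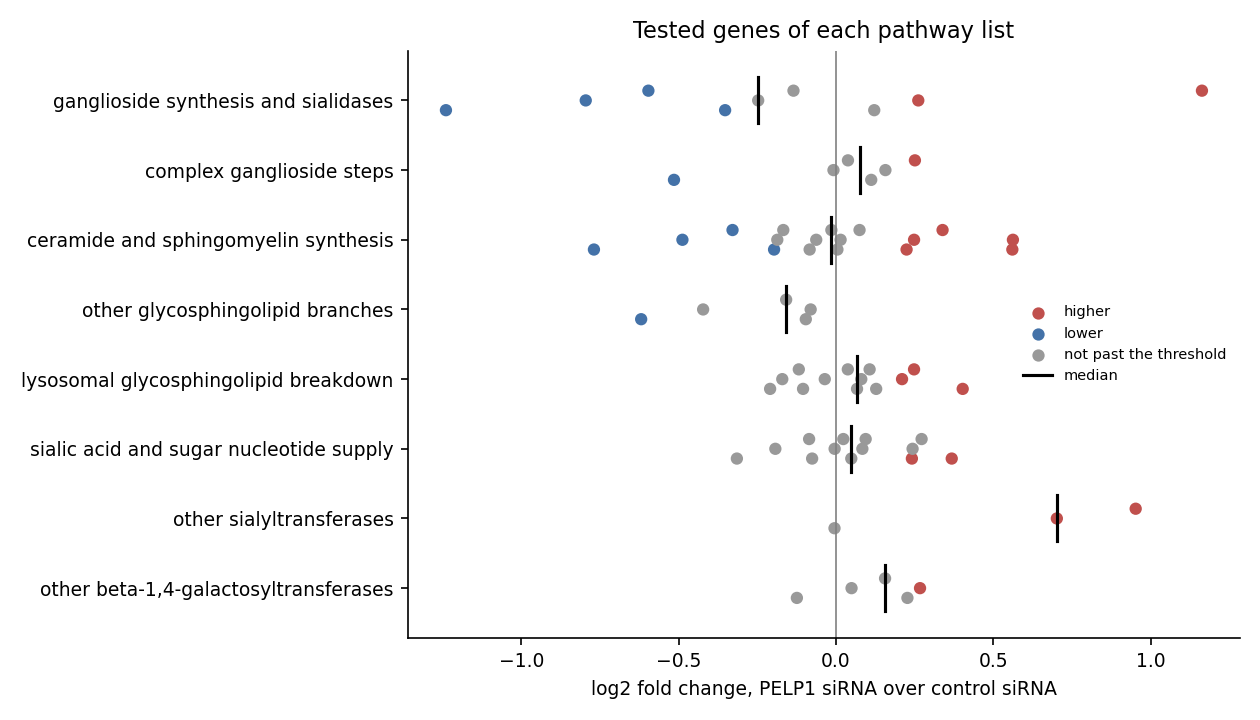
Log2 fold change, PELP1 siRNA over control siRNA, of each tested gene of the ganglioside set and of 7 other pathway lists, 1 point a gene, with the list median as a black line; red is higher, blue lower and grey not past the threshold. The ganglioside set, chosen with these values known, spans -1.24 to 1.16. The other lists together span -0.77 to 0.95, and all genes tested span -2.85 to 2.85.

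Over the 4 libraries, the 3 genes closest in pattern to ST8SIA1 among 10593 genes of at least 5 CPM were the cold-sensing channel TRPM8, the glutathione transferase GSTA4 and CTNNBIP1, an inhibitor of β-catenin binding. The measure was the root mean square difference of centred log2 CPM, which was 0.084, 0.10 and 0.10 for them. All 3 shared with ST8SIA1 a lower value in control siRNA library 2 than in library 1. The measure spans all 4 libraries, so this follows largely from how the genes were chosen. The genes closest to B4GALT5 were the protease ADAMTS1 (0.029), the hexokinase-like HKDC1 (0.031) and the plasminogen activator PLAU (0.033). ADAMTS1 stood at 94.5 and 92.8 CPM with PELP1 siRNA, against 215 and 216 CPM with control siRNA.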

How the data were processed

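RNA was sequenced from 4 U87 libraries, 2 with PELP1 siRNA and 2 with control siRNA. The deposited values are raw read counts per gene symbol, which the authors made with CASAVA 1.8.2, TopHat2 2.0.8b and HTSeq on hg19 (GRCh37), per the submitters' processing notes. The strand setting and annotation release were not given in the sources used here. The counter's 5 summary lines (36.0 to 37.6% of each column) were left out. A count of this kind leaves out reads that map to several places.

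From these counts, 13234 of 23228 symbols were kept by edgeR's default expression filter. It asks for the CPM of about 10 counts at the median library size in at least 2 libraries, and 15 counts in total. After TMM scaling, edgeR 4.0.16 under R 4.3.3 tested the siRNA group by robust quasi-likelihood. P-values were adjusted over all tested genes by Benjamini-Hochberg and called under 0.05. Each SE is the absolute log2 fold change divided by the square root of that test's F statistic. It thus restates the test and is not a separate estimate from the libraries. The biological coefficient of variation was 5.23%, and 1 count is 0.0446 to 0.0527 CPM, so counting limits the genes of a few CPM. On simulated counts of 13234 genes it recovered 62.0% of 50 planted 1.25-fold changes, 84.0% of 50 planted 1.5-fold changes, and 86.0% of 50 planted 2-fold changes. In that simulation 7 of 171 calls were false. Its counts were drawn with the dispersions fitted to these same libraries, and far fewer genes were changed than the 3692 called in the data. These shares thus hold for that setting only. RPKM used the union of exons in GENCODE v44lift37. A 3' UTR is that of the canonical transcript.

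The members and lists were chosen with earlier results of these data known. Genes outside the set were named by rule: per list and direction the 3 called genes of lowest adjusted p, the nearest patterns and the paralogs. DEGS1, CTSA, B3GALT4, SLC26A10 and the markers were picked once their values had been seen. 1 gene that the rule would name is not reported here. The alternatives were other scalings (DESeq2 size factors, upper quartile, total counts), a filter at 5 CPM in 2 libraries, none at all, DESeq2 1.42.0, limma-voom (limma 3.58.1), a fit that is not robust, each library left out, the replicate number as a block, and another gene length.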

Additional observations from a re-analysis of the deposited data

How the results depend on the processing

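B4GALT5, ST8SIA1 and B4GALNT1 kept their direction in all 13 alternative fits, and passed the threshold in those that kept all 4 libraries. Their log2 fold changes ran from -1.27 to -1.19, from 0.86 to 1.51 and from -0.64 to -0.55. The alternatives reuse the counts that were known when the set was chosen. Their agreement thus describes the processing only and is no further evidence for these genes. Among the genes refitted under each alternative, which are PELP1, the 9 genes and the other genes named with a log2 fold change, UGCG alone changed sign, to 0.060 without PELP1 siRNA library 2, and it passed the threshold (-0.36) without PELP1 siRNA library 1. Over the fits that leave out 1 library, which take a single remaining library to vary as the other group does, 1 to 2 of the 9 genes were higher and 2 to 5 lower. The same fits gave 5 to 20 higher and 4 to 15 lower other pathway genes, and 523 to 2724 higher and 943 to 2804 lower genes in all. DESeq2 called 1127 genes higher. With the replicate number as a block, 1613 genes were higher and 1968 lower, the ganglioside genes kept their counts of 2 and 4, PELP1 had a log2 fold change of -2.21, and among those refitted genes ST6GALNAC4 alone lost its call (adjusted p = 0.0543). Same-numbered libraries did not deviate together (correlation -0.041 over 13234 genes), so the numbers were not taken as pairs. With the longest annotated transcript as the length, control siRNA levels were 11.3 RPKM for UGCG, 9.16 for B4GALT6, 1.26 for ST3GAL5, 0.331 for ST8SIA1, 4.87 for B4GALNT1, 17.0 for NEU1 and 0.814 for NEU3, because that length is shorter. With at least 5 CPM required in 2 libraries, 3 of the genes were called lower, and ST8SIA5 and NEU3 were not in that fit. Counting error is widest for ST8SIA5, NEU3 and ST8SIA1, which rest on 56 to 138 counts a library.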
